A study of Homo sapiens and Mus musculus with 7 samples.

Results

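The liver of a mouse without Fas was compared with the liver of a wild-type mouse, on 2 of the 7 arrays of the series and 1 array for each animal. Both animals were labelled as male, 2 months old and of the strain C57/BL6, and total RNA of whole liver was hybridised to an Affymetrix mouse expression array. The knockout was labelled Fas knock-out. The sources used here do not give the allele, the altered stretch of the gene, the time of day at which the livers were taken, feeding, or whether the mice were littermates. The comparison asked which genes of liver tissue differ in level with and without Fas. Genes were taken where their probe set had a signal above 400 on at least 1 of the 2 arrays, which kept 6850 of 18193 genes and 11319 of 45037 probe sets.

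Fas (CD95) is a death receptor of the tumour necrosis factor receptor family. Binding of Fas ligand gathers the adaptor Fadd and caspase-8 at its intracellular death domain, and hepatocytes, which carry much Fas, die by apoptosis when the receptor is strongly stimulated. In lymphoid organs Fas limits the number of lymphocytes, and mice without it build up unusual T cells with age. Most liver RNA comes from hepatocytes, which secrete plasma proteins and run metabolism. Kupffer cells (resident macrophages), sinusoidal endothelial cells and stellate cells add smaller shares. Many liver transcripts also follow the time of day, driven by the circadian clock and by feeding.

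With 1 array for each genotype no difference has a replicate check, no test was possible, and precision is limited by the number of arrays. Values are linear array intensities (signal), each array having a 2% trimmed mean of 500.004. The log2 ratio is the knockout over the wild-type array after 20.5 was added to each signal, so it understates the differences of dim genes. Genotype and individual animal differ between the same 2 samples and cannot be told apart. Any difference in time of day, substrain, DNA linked to the Fas allele or array processing cannot be told apart from them either. The labelled sex and tissue were borne out by the markers: the Y-linked gene Eif2s3y had a signal of 3347 in wild-type and 3256 in knockout liver, and Alb, the gene of albumin, 29417 and 30452. The inactivation transcript Xist reached at most 74.97 on either array.

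Fas itself was lower on the knockout array. Its single probe set had a signal of 560.2 in wild-type and 169 in knockout liver, a log2 ratio of -1.61, and the knockout signal was 30.3% of the wild-type signal. The sources used here do not say whether the probe set lies within the altered stretch, so the remaining signal cannot be assigned to background or to transcript. Of the 6850 kept genes, 26 (0.38%) were at least 2-fold lower in the knockout and Fas was among them, while 15 (0.219%) were at least 2-fold higher.

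The other genes of the Fas pathway differed less. Of 25 listed genes 21 were measured and 12 kept, Fas included, and these 12 lay 6 below and 6 above a log2 ratio of 0 with a median of -0.01, where 50.1% of all kept genes lay below 0. Casp8, the initiator caspase that Fas recruits, had a signal of 2106 in wild-type and 1841 in knockout liver (-0.19). Daxx, a nuclear adaptor first found through its binding to Fas, went from 421 to 361 (-0.21). Bcl2l1, which encodes the survival protein Bcl-xL, had the highest ratio of the list, 675 against 855 (0.33). Among the other survival genes, Mcl1 was at 4666 and 4395 (-0.09), and its 5 other kept probe sets lay between -0.24 and 0.18. Fasl, the ligand, stayed below 400 with signals of 32.5 and 37.3, and so did Fadd with 286 and 260.3.

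The distribution of differences was narrow. Over all kept genes the median log2 ratio was -0.00 and the SD across genes 0.27, and the 5th and 95th percentiles were -0.43 and 0.35. At a smaller size of 1.5-fold, 89 genes (1.3%) were higher and 150 (2.19%) lower in the knockout. The filter shapes these numbers: it kept 522 genes through 1 array only, 356 of them through the wild-type array and 166 through the knockout array. Just above the filter lay Elmo3 with 400.1 and 349.8, and just below it Ddx41 with 312 and 399.8. Of the 26 lower genes 19 were under 400 on the knockout array, and of the 15 higher genes 6 were under 400 on the wild-type array. The direction also moved with brightness. Of the 889 genes with a mean signal under 500, 62.2% lay below 0, against 32.7% of the 483 genes above 10000, so the lists below are set beside kept genes of the same brightness. When both arrays were scaled to the same median, the median ratio over all genes became 0.09, and this scaling turned the 2-fold split from 15 higher and 26 lower genes (36.6% higher) into 21 and 22 (48.8% higher). With quantile normalization it was 18 and 22 (45%). List medians given below with equal medians include the shift of all kept genes to 0.09. All lists and their members were chosen with earlier results of these data known.

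**Figure D1:**
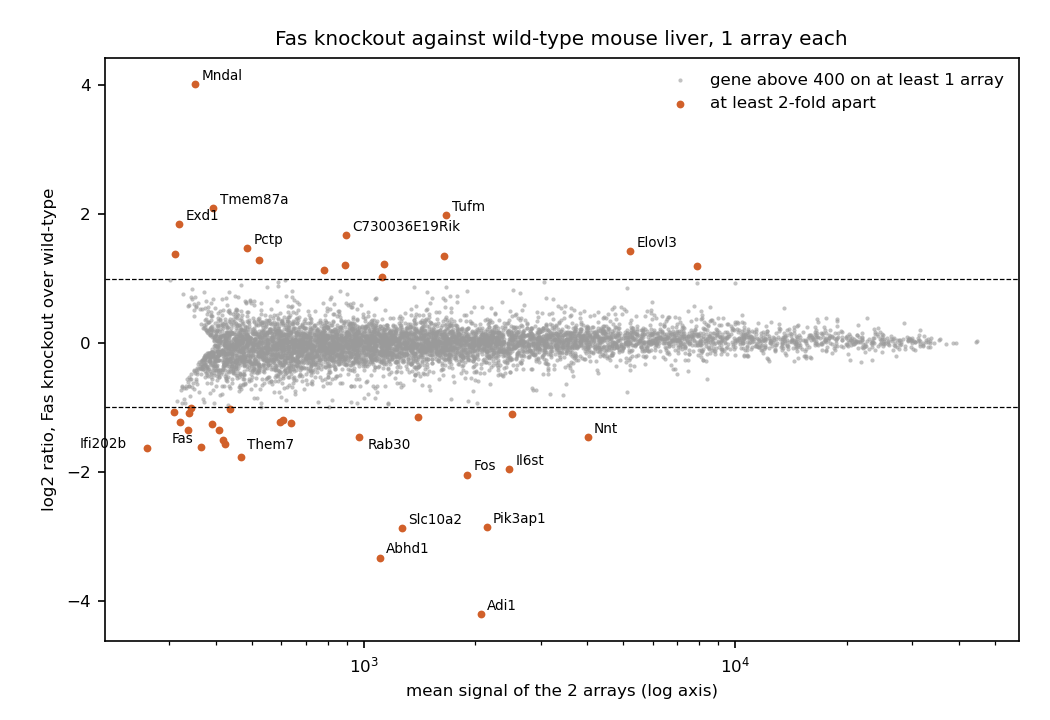
Log2 ratio of Fas knockout over wild-type liver (vertical) against the mean signal of the 2 arrays (horizontal, log axis) for the 6850 kept genes; orange points are at least 2-fold apart and dashed lines mark 2-fold. Most genes lie close to 0, and Mndal (4.02) and Adi1 (-4.21) lie farthest from it.

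Adi1 had the lowest ratio of all kept genes. It encodes an enzyme of methionine salvage, and its signal was 3946 in wild-type and 194 in knockout liver (-4.21). Its cross-hybridising probe sets gave smaller differences, 4114 against 849.5 (-2.25) and 5378 against 4799 (-0.16). Probe sets that read the same gene symbol therefore did not give a common size for Adi1. Abhd1, a gene of the alpha/beta hydrolase family, came next with 2030.1 and 183 (-3.33).

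Slc10a2, the apical sodium-dependent bile acid transporter known from ileum and bile duct cells, was at 2251 in wild-type and 288 in knockout liver (-2.88). Pik3ap1, which encodes the adaptor BCAP that links receptors of immune cells to phosphoinositide 3-kinase, went from 3783 to 505 (-2.85). The other probe set of Pik3ap1 was dim on both arrays, at 175 and 186. A probe set of Il6st, which encodes gp130, the shared signalling receptor of the interleukin-6 family, went from 3938 to 1001 (-1.95). Its other kept probe sets went slightly the other way, from 2012 to 2229 (0.15) and from 632 to 799 (0.33), so the direction for Il6st depends on the probe set. Fos, the activating protein-1 subunit, had 3068 in wild-type and 729 in knockout liver (-2.04).

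The other 8 of the 15 lowest genes had log2 ratios between -1.77 and -1.34. Them7, named for its thioesterase family, had 734 and 200.4 (-1.77), and Ifi202b, an interferon-inducible gene of the Ifi200 family, 404 and 116 (-1.64). Hddc3, named for its HD domain, had 643 and 203 (-1.57), and Bmf, a pro-apoptotic BH3-only member of the Bcl-2 family, 628 and 207 (-1.51). Dimmer probe sets of Hddc3 (30.0 and 54.9) and Bmf (38.0 and 99.2) went the other way below the filter. Nnt, the mitochondrial nicotinamide nucleotide transhydrogenase, was bright on both arrays, with 5901 in wild-type and 2128 in knockout liver (-1.46). Its cross-hybridising probe set gave the same ratio, 8150.45 against 2945 (-1.46). Rab30, a small GTPase of the Golgi, went from 1434 to 511 (-1.45). Rps27, the gene of a ribosomal protein, was dim, at 493 and 180.3 (-1.35). Fmo2, a flavin-containing monooxygenase, was at 594 and 222 (-1.34), and its other kept probe sets were lower as well, by -0.81 and -0.87.

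Mndal had the highest ratio. It belongs to the same Ifi200 family as Ifi202b, and its signal was 22.7 in wild-type and 681 in knockout liver (4.02). Its cross-hybridising probe set had the same direction, with 26.8 against 1018 (4.46). The 2 family members thus lay at opposite ends of the comparison.

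Tmem87a, which encodes a Golgi membrane protein, was next with 137 and 652 (2.10). Tufm, the mitochondrial translation elongation factor, went from 656 to 2671 (1.99) on a single probe set, whereas its cross-hybridising probe set had 1910 and 2167 (0.18). Exd1, a gene of the exonuclease domain family, had 127 and 511 (1.85). The unnamed transcript C730036E19Rik had 417 and 1375 (1.68). Pctp, the phosphatidylcholine transfer protein, had 248 and 724 (1.47), and its dimmer probe set had 104 and 277. The wild-type signals of Tmem87a, Exd1 and Pctp were all below 400.

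The other highest genes held several of known liver function. Elovl3, an elongase of very long chain fatty acids, had 2828 in wild-type and 7609 in knockout liver (1.42). Ppp1r3c, the glycogen-targeting subunit of protein phosphatase 1, had 918 and 2379 (1.35), with a second, dimmer probe set at 170 and 315 (0.82). Slco1a4, an organic anion uptake transporter, had 529.6 and 1253 (1.21). These 3 genes belong to lipid, glycogen and drug handling. Mup10, a major urinary protein that carries pheromones, was at 4787 and 11053 (1.20), and Gstt3, a glutathione transferase, at 484 and 1081 (1.13). Arsb, the lysosomal arylsulfatase B, had 732 and 1506 (1.02). Dct, an enzyme of melanin synthesis, had 669.5 and 1601 (1.23). The zinc finger gene Zfp874a had 163 and 457 (1.38), and Lrrc61, named for its leucine-rich repeats, 295 and 750.5 (1.29).

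**Figure D2:**
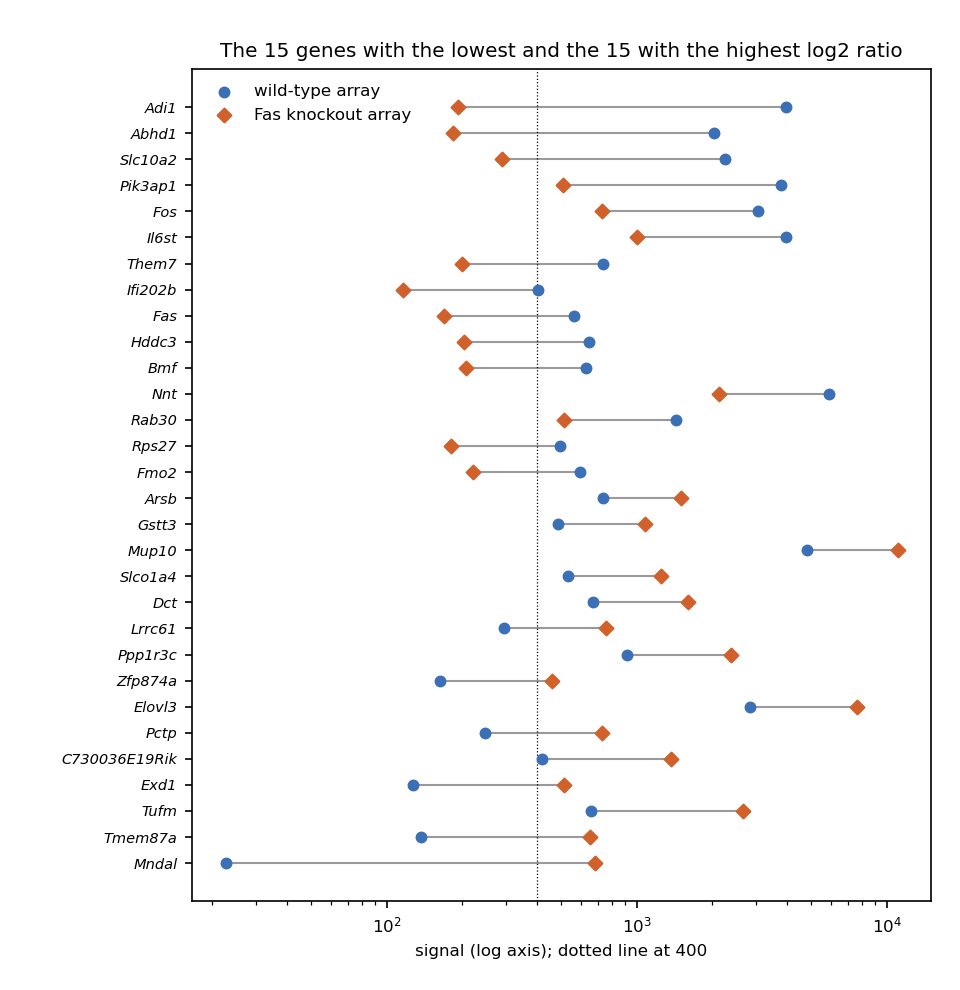
Signals (log axis) of the 15 genes with the lowest and the 15 with the highest log2 ratio; circles are the wild-type array, diamonds the Fas knockout array, and the dotted line marks 400. Adi1 spans 3946 to 194 and Mndal 22.7 to 681, while Nnt and Elovl3 stay above 400 on both arrays.

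Of the 41 genes at least 2-fold apart, 38 rested on 1 kept probe set when cross-hybridising probe sets were left out. The other 3 were Ctse, Fmo2 and Il6st, and all probe sets of Ctse (cathepsin E, an aspartic protease) were past 2-fold, with -1.19 and -1.22. Across the 2003 genes with at least 2 kept probe sets, the SD of the log2 ratio within a gene was 0.19, and in 13 genes the probe sets lay over 1 apart. This spread between probe sets of 1 array pair does not hold the spread between animals.

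Hepatocyte identity genes were nearly level. All 26 measured genes of this list (plasma proteins and liver transcription factors) were kept, 20 of them above 0 and 6 below, with a median of 0.02 (0.11 with equal medians) and a range from -0.24 to 0.28, where 34.2% of genes of the same brightness lay below 0. Apoa1, the main protein of high density lipoprotein, had 44318 and 44632 (0.01). Fgb, the fibrinogen beta chain, had 38464 and 38629.6 (0.01). At the edges of the list lay Nr1h4, the bile acid receptor, with 5639.8 and 4778 (-0.24), and Tat, tyrosine aminotransferase, with 19437 and 23556 (0.28). The summed signal of the list in the knockout was 102% of that in wild-type. In bulk tissue fewer cells of a type and less RNA per cell cannot be told apart.

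Acute phase genes, which hepatocytes make under interleukin-6 and interleukin-1, leaned slightly lower. Of the 21 kept, 16 lay below 0 with a median of -0.09, where 38.6% of genes of the same brightness lay below 0. With equal medians, which moved the median of all kept genes to 0.09, 11 lay below 0 with a median of -0.01. Set against the median of all kept genes, the list lay at -0.09 under the deposited scaling and -0.10 with equal medians. Orm2, an orosomucoid, had 794 in wild-type and 486 in knockout liver (-0.68). Socs3, the feedback inhibitor of gp130 signalling, had 679 and 445 (-0.59). Saa2, a serum amyloid A, had 2226 and 1736 (-0.36). These were the lowest of the list, and no member was 2-fold apart. Of all kept genes 0.219% were higher and 0.38% lower by that size. The iron hormone Hamp had 25431 and 21282 (-0.26), while Hp, haptoglobin, was higher with 22677 and 24960.0 (0.14).

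The drug-metabolising cytochrome P450 genes had the same median as other genes of their brightness, with a few higher members. Of 25 kept genes 7 lay below 0, where 37.6% of genes of the same brightness did, and the median was 0.04 (0.00 with quantile normalization). In this list 4 were at least 1.5-fold higher with 0 lower, where 1.3% and 2.19% of all kept genes were. Cyp2c39 had 1811 in wild-type and 3239 in knockout liver (0.83), and its neighbour in the Cyp2c family Cyp2c38 had 1080.3 and 1888 (0.79). Cyp26a1, which clears retinoic acid, had 367 and 590.1 (0.66), and Cyp3a13 had 4651 and 7282 (0.64). The most intense members were level: Cyp2e1 had 33713 and 32283 (-0.06), and Cyp3a11 33198 and 33881 (0.03). Members of the Cyp2c family are close in sequence, so their probe sets may share signal.

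Conjugation enzymes and transporters had a median of 0.12 (0.21 with equal medians). Of 39 kept genes 27 lay above 0 and 12 below, where 38.7% of genes of the same brightness lay below 0. In this list 4 were at least 1.5-fold higher, where 1.3% of all kept genes were. These 4 were Slco1a4 and Gstt3, given above, and the glutathione transferases Gsta4 with 2081 and 4051 (0.95) and Gsta2 with 1276 and 2041 (0.67). Fmo2 was the single member at least 1.5-fold lower, where 2.19% of all kept genes were. The bile acid list had 16 of 21 genes above 0 and a median of 0.12 (0.06 with quantile normalization and 0.21 with equal medians), where 38.1% of genes of the same brightness lay below 0. Nr0b2, the nuclear receptor SHP that represses bile acid synthesis, had 1797 and 2617 (0.54). Abcb11, the bile salt export pump, had 8879 and 12008 (0.43). Cyp7a1, the rate-limiting enzyme of bile acid synthesis, had 6309.7 and 7896 (0.32). No kept gene of this list, which does not hold Slc10a2, was 1.5-fold apart. Of all kept genes 1.3% were higher and 2.19% lower by that size.

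Lipid and sterol synthesis genes lay mostly above 0. For fatty acid synthesis 19 of 23 kept genes were above 0 with a median of 0.15 (0.24 with equal medians), while 37.8% of genes of the same brightness were below 0. After Elovl3, Fasn, the fatty acid synthase, had the highest ratio, with 3994 in wild-type and 5882 in knockout liver (0.56). Me1, malic enzyme, had 8064 and 10539 (0.39), but its other probe set had 3493 and 3322 (-0.07). Scd1, the stearoyl-CoA desaturase and the most intense member, was level at 32076 and 33161 (0.05). For cholesterol synthesis 16 of 20 genes were above 0 with a median of 0.12 (0.07 with quantile normalization and 0.21 with equal medians), and 40.9% of genes of the same brightness lay below 0. The highest were Insig1, the sterol sensor partner, with 6929.5 and 9362 (0.43), and Hmgcs1, which makes HMG-CoA, with 16414 and 21327 (0.38). Fatty acid oxidation genes and targets of the nuclear receptor PPARA divided more evenly, 16 above and 12 below 0, with a median of 0.04 (-0.00 with quantile normalization), where 40.4% of genes of the same brightness lay below 0.

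Genes of amino acid and urea metabolism lay nearly all on 1 side: 29 of 30 lay above 0, with a median of 0.14 (0.23 with equal medians), where 34.7% of genes of the same brightness lay below 0. Csad, which makes the precursor of taurine, had 5424 in wild-type and 10360.3 in knockout liver (0.93). Glul, glutamine synthetase of the pericentral hepatocytes, had 11015 and 16122 (0.55), and Hal, histidine ammonia lyase, 3828 and 5506 (0.52). Cbs, the cystathionine beta-synthase, had 4202 and 5961 (0.50). Most other members were close to level, as Cps1, the urea cycle entry enzyme, with 29222 and 30803 (0.08). Ass1, argininosuccinate synthase, was the member below 0 with 863 and 517 (-0.72), on a probe set that was not its most intense one, since that one carries several symbols and names no gene here.

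Genes of gluconeogenesis and fasting divided, 9 above and 13 below 0 with a median of -0.05 (0.03 with equal medians), where 40.7% of genes of the same brightness lay below 0. Sik1, a kinase induced by cyclic AMP, had 840.1 and 348 (-1.22), and Ppp1r3g, a glycogen-targeting subunit, 3425 and 1582 (-1.10). Asns, asparagine synthetase, went the other way with 407 and 822 (0.98), as did Ppp1r3c. Ppp1r3b, another glycogen-targeting subunit, had 3803 and 5064 (0.41), so the subunits in this list did not share a direction. Pck1, the gluconeogenic carboxykinase, was level with 22986 and 22165 (-0.05). Of the zonation lists, pericentral genes had a median of 0.07 (4 of 16 below 0, against 41.7% at the same brightness) and periportal genes 0.08 (5 of 19 below 0, against 36.7%). Of 7 kept female-biased genes 6 lay below 0, against 58.7% at the same brightness, with a median of -0.28 that came to -0.048 over the 5 genes above 400 on both arrays. Of 16 male-biased genes 10 lay below 0, against 38.0%, with a median of -0.03 (0.06 with equal medians). The 2 kept major urinary protein genes of the list, Mup3 and Mup5, were level at 0.06 and 0.05, Mup3 on a cross-hybridising probe set. Mup10, given above and outside this list, was higher (1.20).

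**Figure D3:**
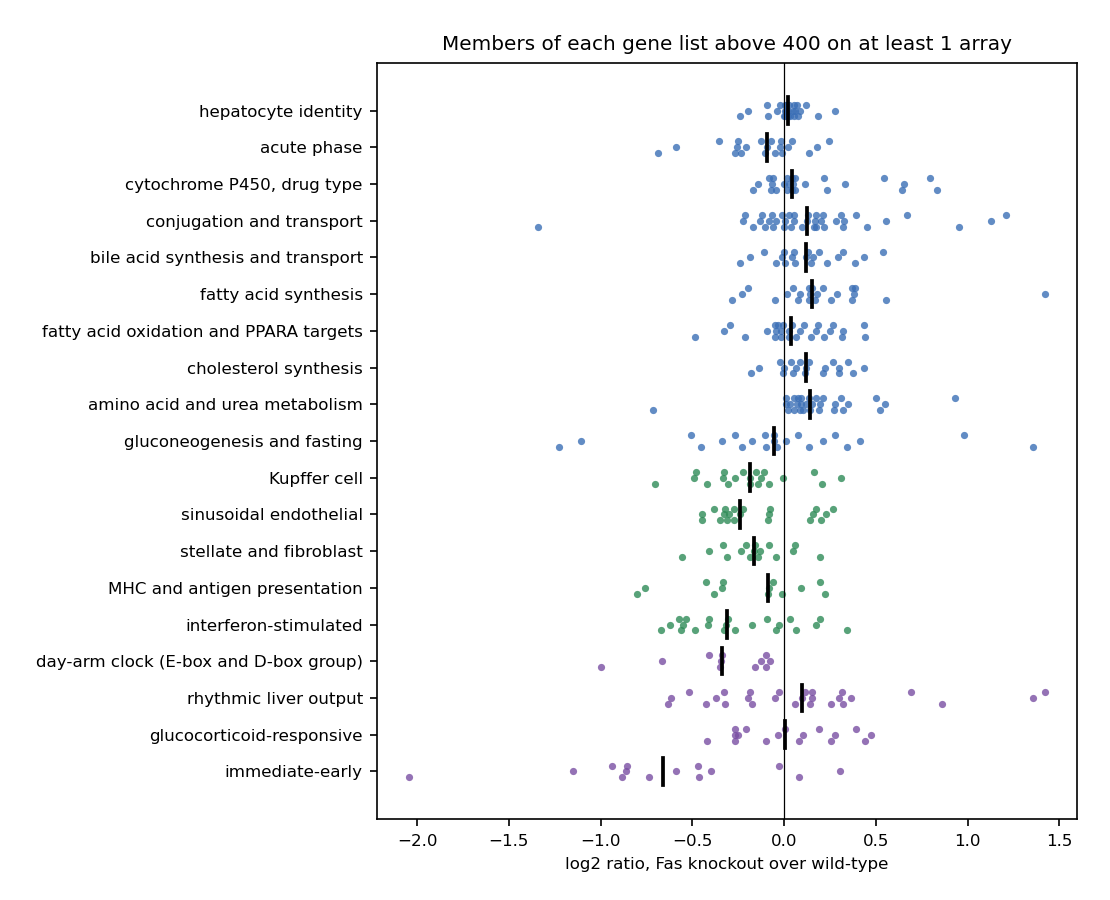
Log2 ratio of Fas knockout over wild-type liver (horizontal) for each kept member of 19 gene lists; a point is a gene and a black bar the median of its list, with hepatocyte lists in blue, non-parenchymal and immune lists in green and time-of-day lists in purple. Immediate-early genes have a median of -0.66 and hepatocyte identity genes one of 0.02.

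Genes of the resident non-parenchymal cells were mostly lower on the knockout array. Over the Kupffer cell, sinusoidal endothelial and stellate lists together, 45 of 57 kept genes lay below 0 with a median of -0.19, while 49.8% of kept genes of the same brightness lay below 0. With equal medians the Kupffer, endothelial and stellate medians were -0.10, -0.16 and -0.07, where the median of all kept genes was 0.09. Set against that, they were -0.19, -0.25 and -0.16. Under the deposited scaling the same values were -0.19, -0.24 and -0.16. No member of these lists was 2-fold apart, where 0.219% of all kept genes were higher and 0.38% lower by that size. Only Il18bp was at least 1.5-fold lower, where 2.19% of all kept genes were. Hepatocyte identity genes, by contrast, had a median of 0.02, but the difference between the lists was not tested.

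For Kupffer cells 17 of 20 kept genes were below 0, with a median of -0.19, against 48.0% at the same brightness, and the summed signal of all 25 measured genes in the knockout was 90.4% of that in wild-type. Csf1r, the receptor of macrophage colony-stimulating factor, had 8109 in wild-type and 5809 in knockout liver (-0.48). Clec4f, a lectin restricted to Kupffer cells in the mouse, had 3427 and 2769.8 (-0.31), and Ctss, the lysosomal cathepsin S, 4854 and 3627 (-0.42). Cd68, a macrophage lysosomal protein, had 447 and 312 (-0.49). The complement C1q genes, which macrophages make, were nearer to level or higher. C1qa had 2746 and 2595 (-0.08), C1qc 1971 and 1961 (-0.01), and C1qb 2184 and 2713 (0.31). The other members above 0 were Cd163, a scavenger receptor for hemoglobin, at 0.16 and Hpgd, which degrades prostaglandins, at 0.21. Vsig4, a complement receptor of Kupffer cells, had 4693 and 4117 (-0.19), and Cd5l, a protein secreted by tissue macrophages, 5112 and 4636 (-0.14). Il18bp, which binds and blocks interleukin-18, had 546 and 327 (-0.70).

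For sinusoidal endothelial cells 15 of 21 kept genes were below 0, against 52.0% at the same brightness, with a median of -0.24, and the summed signal of the 26 measured genes was 93.5% of wild-type. Lyve1, the hyaluronan receptor, had 1414 and 1030.1 (-0.45). Stab2, a scavenger receptor, had 1994 and 1593 (-0.32), and its relative Stab1 711 and 542 (-0.38). Other defining genes went the other way. Clec4g, a lectin of these cells, had 4840.0 and 5401 (0.16), and Ehd3, an endocytic protein, 1345 and 1620.0 (0.26). For stellate cells and fibroblasts 13 of 16 kept genes were below 0, against 49.0% at the same brightness, with a median of -0.16, and the sum was 89.9% of wild-type. Rgs5, a pericyte regulator of G protein signalling, had 3717 and 2796 (-0.41), Col3a1, a fibrillar collagen, 3483 and 2766 (-0.33), and Lrat, which stores retinol as ester, 1176 and 996 (-0.23).

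Lymphocytes, the cells in which loss of Fas is best known, gave low signals on both arrays. Of 29 measured T and natural killer cell genes 28 were below 400 on both arrays, none of those above 186, and the summed signal of the list was 2757 in wild-type and 2683 in knockout liver. Cd3e, a chain of the T cell receptor complex, had 32.4 and 41.9, and Cd4 25.2 and 40.6. The kept member, Zap70, the kinase of T cell receptor signalling, had 862 and 939 (0.12) on 1 probe set and 938 and 378 (-1.27) on another, with a ratio of 0.18 on a cross-hybridising one, so its direction depends on the probe set. Of 20 B and plasma cell genes 18 were below 400 on both arrays, with 287 as their highest signal. The kept ones, Xbp1 and Sdc1, are also hepatocyte genes. Of 17 neutrophil and monocyte genes 16 were below 400, the kept one being Plac8 with 1467 and 1141 (-0.36). All 15 cholangiocyte genes were below 400, with 367 as the highest signal and a summed signal of 1949 in wild-type and 1206 in knockout liver.

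Interferon-stimulated genes were mostly lower. Of 22 kept genes 17 lay below 0 with a median of -0.31 (-0.18 over the 17 genes above 800 on at least 1 array). At the same brightness 51.6% of kept genes lay below 0. In this list 2 were at least 1.5-fold lower, where 2.19% of all kept genes were. Irf7, the transcription factor that amplifies the interferon response, had 1141 in wild-type and 709 in knockout liver (-0.67). Rsad2, the antiviral protein viperin, had 1052 and 677 (-0.62), and Usp18, which removes ISG15 from proteins and damps interferon signalling, 1448 and 982 (-0.55). Iigp1, an immunity-related GTPase and the most intense member, was level at 21435 and 21959 (0.03). The part of non-parenchymal cells in these differences was not tested. For MHC and antigen presentation 10 of 13 genes lay below 0 with a median of -0.09, where 52.0% of genes of the same brightness did. With equal medians, which moved the median of all kept genes to 0.09, 7 of 13 lay below 0 with a median of -0.00. Set against the median of all kept genes, the list lay at -0.09 under both scalings. The class II genes were lower, H2-Aa with 1373 and 804 (-0.76) and Cd74, the invariant chain, with 658 and 500.2 (-0.38). The class I light chain B2m had 29261 and 33529 (0.20), and H2-D1 had 529 and 294 (-0.80) on 1 probe set, while its most intense cross-hybridising one had 19101 and 17236 (-0.15).

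**Figure D4:**
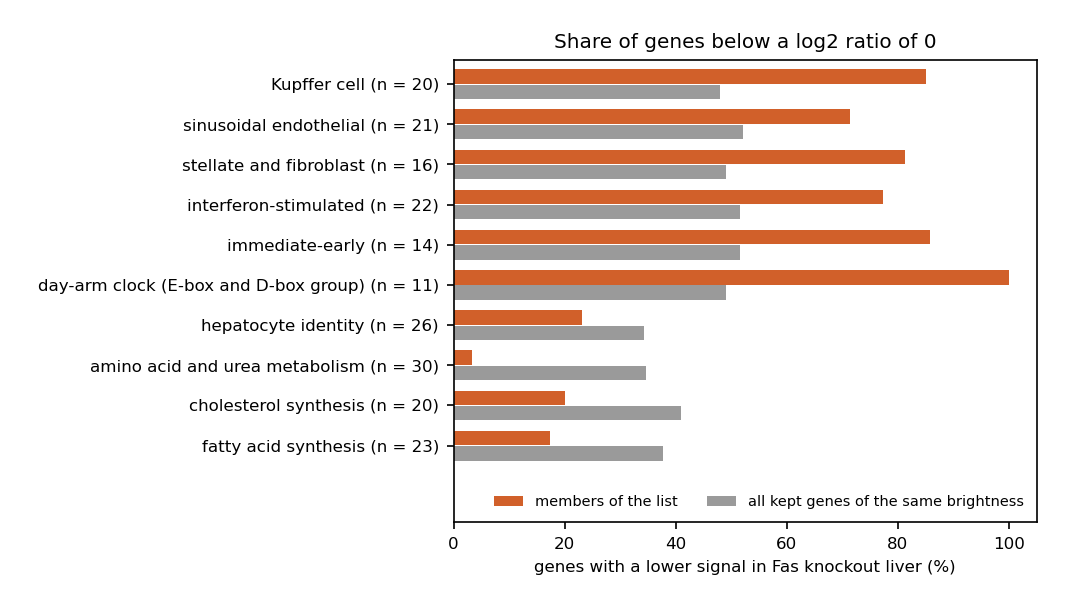
Percentage of kept genes with a log2 ratio below 0 in 10 gene lists (orange bars) beside that of all kept genes of the same brightness (grey bars). All 11 day-arm clock genes and 17 of 20 Kupffer cell genes lie below 0, but 1 of 30 genes of amino acid and urea metabolism.

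Clock genes differed between the arrays. The clock rests on Arntl (Bmal1) and Clock, which drive Per, Cry, Nr1d and D-box genes through E-box elements, and the latter peak through the day and evening in mouse liver. Of 13 such day-arm genes 11 were kept and 11 of 11 lay below 0 (10 of 11 with equal medians), with a median of -0.34, while 49.0% of genes of the same brightness lay below 0. Per2, a repressor of the clock, had 1080.1 in wild-type and 531 in knockout liver (-0.997). Cry2, another repressor, had 957 and 596 (-0.67), and Per3 647 and 482 (-0.41). The D-box factors Hlf, with 739 and 576 (-0.35), and Tef, with 4009 and 3167 (-0.34), had near equal ratios. Bhlhe40, a clock repressor also induced by stimulation, had 5841 and 4603 (-0.34).

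The remaining day-arm genes were closer to level. Nr1d2, the nuclear receptor Rev-erb beta, had 7731 and 6935 (-0.16), Ciart, a repressor of the clock, 704 and 643 (-0.13), and Dbp, the D-box activator, 9449 and 8835 (-0.10). Per1 had 581 and 542 (-0.10), and the deubiquitinase Usp2 2239.6 and 2123 (-0.08). In liver Dbp has a rhythm of large amplitude, and its signal was high on both arrays. The filter left out 2 genes that lay above 0, Nr1d1, the nuclear receptor Rev-erb alpha, with 67.2 and 208, and the clock repressor Bhlhe41 with 31.5 and 51.1. Without a filter 11 of 13 day-arm genes lay below 0 and the median was -0.16.

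The opposite arm held 3 kept genes that did not share a direction. Cry1, a late repressor, had 414 and 253 (-0.67), and Nfil3, the D-box repressor, 1758 and 1114 (-0.65). Clock had 413 and 646 (0.62). Arntl was below the filter on both arrays, at 144 and 120.4, and so was Npas2, which can stand in for Clock, at 6.91 and 24.1. Rhythmic output genes, which the clock or feeding drives, divided into 15 above and 12 below 0, with a median of 0.10 (0.06 with quantile normalization and 0.19 with equal medians), where 43.1% of genes of the same brightness lay below 0. Besides Elovl3 and Ppp1r3c these included Rgs16, a fasting-linked regulator of G protein signalling, with 3640.3 and 6617 (0.86), and Tfrc, the transferrin receptor, with 818 and 1331 (0.69). Slc25a25, a mitochondrial carrier, had 4279.9 and 2751 (-0.63), and Wee1, the cell cycle kinase under clock control, 984 and 636 (-0.61).

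Immediate-early genes, which cells transcribe within minutes of growth factor, stress or handling signals, were lower as a group. Of 20 measured genes 14 were kept, 12 of 14 lay below 0, against 51.5% at the same brightness, with a median of -0.66, and 8 were at least 1.5-fold lower, where 2.19% of all kept genes were. Fos has been given above, and Myc, the growth-promoting transcription factor, had 1934 in wild-type and 861 in knockout liver (-1.15). Btg2, an antiproliferative gene, had 2659 and 1380.0 (-0.94), and Nr4a1, an orphan nuclear receptor, 1069 and 569.7 (-0.89). Jun had 2217 and 1211 (-0.86), with -0.88 on its other probe set, and its partner Junb 670.1 and 361 (-0.86). Egr1, a zinc finger factor, had 3649 and 2184 (-0.74). The exceptions were Dusp1, a stress-induced phosphatase, with 6358 and 6722 (0.08), and Klf10, with a ratio of 0.30. Zfp36, which promotes decay of cytokine RNA, was level at 2819 and 2761 (-0.03). Glucocorticoid-responsive genes had a median of 0.01 (-0.01 with quantile normalization; 8 of 17 below 0, against 38.3% at the same brightness), from Sgk1, a kinase, with 3586 and 2679.8 (-0.42), to Tsc22d3, the glucocorticoid-induced leucine zipper, with 3577 and 4982 (0.48).

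**Figure D5:**
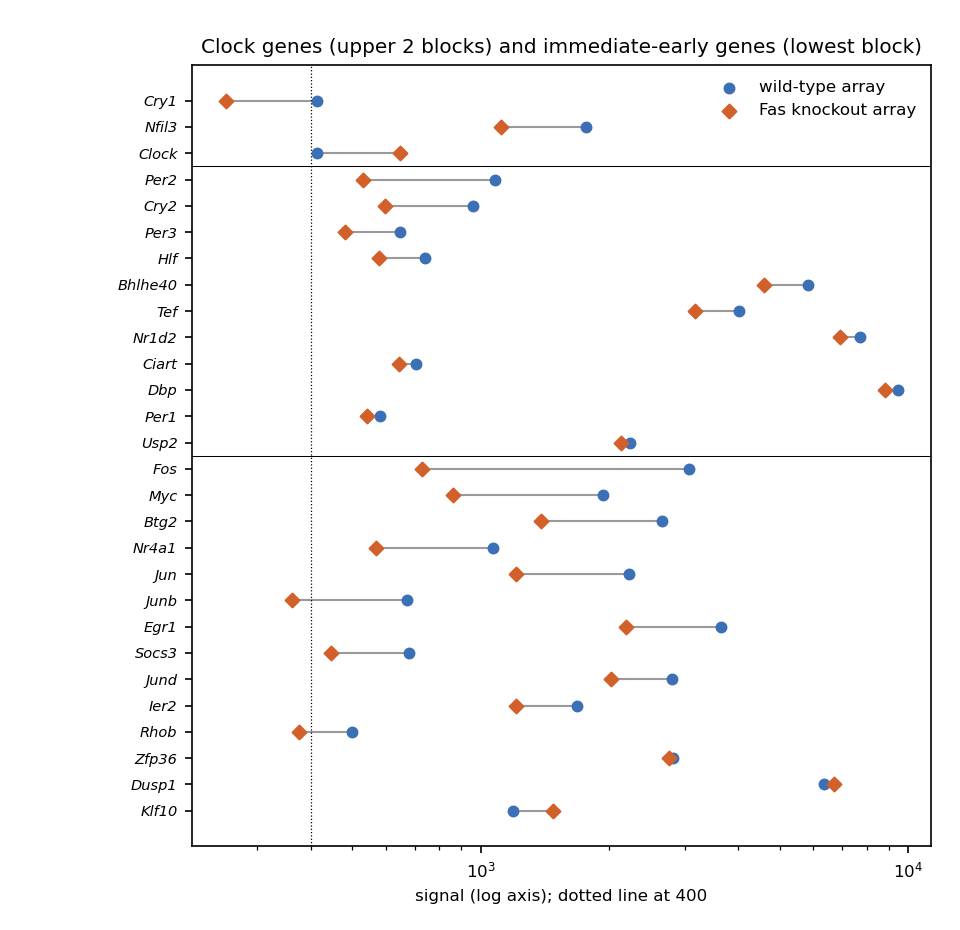
Signals (log axis) of the kept clock genes (upper 2 blocks, Bmal1 group and then day-arm genes) and immediate-early genes (lowest block); circles are the wild-type array, diamonds the Fas knockout array, and the dotted line marks 400. All 11 day-arm genes have the lower signal in the knockout, and Fos (3068 to 729) and Myc (1934 to 861) are the widest pairs of the lowest block.

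Of the listed genes reported to differ between mouse strains or substrains, 2 were at least 2-fold lower and 0 higher. Over all kept genes the shares were 0.38% and 0.219%. Like the other lists, this list was made with earlier results of these data known. Of 23 measured genes 10 were kept, 7 above and 3 below 0, where 46.5% of genes of the same brightness lay below 0. Their median was 0.13 (0.26 with equal medians), which turned to -0.030 when the filter was lowered to 200. Nnt is known for a deletion in the substrain C57BL/6J that several other C57BL/6 lines lack, and Ifi202b for scarce expression in C57BL/6 mice against several other strains. Nnt (5901 and 2128) and Ifi202b (404 and 116) were both lower in the knockout. Ifi202b passed the filter through the wild-type array only. Mndal, of the same Ifi200 family, is not in this list and had the highest ratio of all kept genes (22.7 and 681, 4.02). Wdfy1, an adaptor of Toll-like receptor signalling, had 621 and 1106 (0.81), with ratios of 0.39 and 0.45 on its other kept probe sets. Alad, of heme synthesis, which is duplicated in some strains, had 6203 and 8741 (0.49). Pttg1, securin, had 4907 and 7006 (0.51), and its other probe set 1004 and 1699 (0.75).

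The other kept genes of the strain list differed less. Thumpd1, a tRNA modification protein, had 337 and 428 (0.33), and Trim30a, a tripartite motif gene induced by interferon, 491 and 392 (-0.31). Ide, the insulin-degrading enzyme, had 2283 and 2571 (0.17). Hc, complement C5, had 18226 and 19343 (0.09), and Glo1, glyoxalase, 15242 and 16133 (0.08) on its most intense probe set, with -0.11, 0.10 and 0.45 on the others. Chromosome positions were not used here. Genes near Fas on its chromosome were therefore not set apart, and genes named in this report may be among them.

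Of the lists of general cell state, ribosomal protein genes had a median of 0.01 over 13 genes (-0.01 with quantile normalization), and genes of the unfolded protein and integrated stress response one of 0.04 over 22 genes, from Manf, a chaperone-like secreted protein, with 8607 and 6348 (-0.44), to Asns. Of 23 measured cell cycle genes 17 were below 400 on both arrays. The targets of p53, a list that holds Fas itself and Btg2, had 7 of 9 kept genes below 0, against 52.1% at the same brightness, and a median of -0.28 (-0.12 over the 6 genes above 400 on both arrays). Plk2, a polo-like kinase, had 531 and 299 (-0.79), and Mdm2, which targets p53 for degradation, 490.4 and 379 (-0.36).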

How the data were processed

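The authors deposited 1 table of array intensities for the mouse samples, on a linear scale, made with MAS5 per the submitters' processing notes; its version and settings: not given in the sources used here. By the values, each array was scaled to a 2% trimmed mean of 500.004, with medians of 80.1 (wild-type) and 75.4 (knockout). Detection calls were not used. Of 45101 probe sets 64 controls were left out; by the platform annotation, which can be old, 34945 had 1 symbol, 932 several and 9160 none, and the last 2 kinds named no gene.

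A gene was represented by its probe set of highest mean signal, with cross-hybridising (_x_at) ones used as a last resort. Differences were taken on log2(signal + 20.5), the added value being the 25th percentile of the table. Lists (39) were described by counts and medians beside kept genes of the same brightness: the share below 0 in each brightness class, weighted by the list's members. Named by rule were the Fas pathway core, the 15 largest ratios per direction, and all kept clock and strain genes. Per other list, up to 6 largest and 3 brightest members were named, of which the text gives a part. The text also gives some list members and other genes outside this rule. Members and lists were chosen with earlier results of these data known. The code was tested on simulated data (200 changed genes). Software was Python 3.11.15 with pandas 2.3.3, numpy 2.4.6, matplotlib 3.10.9 and scipy 1.17.1. Alternatives were other pseudocounts, scalings, filters, probe set rules and fold thresholds.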

Additional observations from a re-analysis of the deposited data

How the results depend on the processing

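The count of genes at least 2-fold higher (15) became 29 with a filter at 200, 9 at 800, 690 without a filter and 9 with 400 required on both arrays; the count of lower genes (26) became 60, 13, 865 and 7. At 1.5-fold the counts were 89 and 150, and at 3-fold 5 and 9. The median of the female-biased list moved to -0.048 with 400 on both arrays, and that of the strain list turned to -0.030 with a filter at 200 and to -0.14 without one. The cause was not tested. Equal medians moved the median of all kept genes to 0.09. Kupffer cell, sinusoidal endothelial, stellate, interferon-stimulated, immediate-early and day-arm clock medians were then -0.10, -0.16, -0.07, -0.22, -0.58 and -0.25. Without a filter the day-arm median was -0.16. No gene named by rule and at least 1.5-fold apart changed direction under the other pseudocounts, scalings and probe set rules. Adi1, however, was at -0.16 where cross-hybridising probe sets were allowed, and Tufm at 0.18. Genes that the text names outside the rule were not checked in this way. Il6st was at -0.49 as a mean over probe sets. No paired analysis was possible because each group holds 1 array. Dim genes spread more widely: the SD of the log2 ratio was 0.40 under a mean signal of 500 and 0.12 above 10000.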

Other observations

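Outside the lists, several genes were chosen after their values were seen, and each is given as a value only. Dusp6, a phosphatase that inactivates ERK, had 4023 in wild-type and 2319.8 in knockout liver (-0.79). Socs2, the feedback inhibitor of growth hormone signalling, had 3506 and 2164 (-0.69), and Bcl6, a transcriptional repressor that growth hormone lowers in liver, 778 and 424 (-0.85). Srf, the serum response factor that drives Fos and Egr1, had 492 and 252 (-0.91). Efna1, a membrane-bound ligand of Eph receptors, had 2492 and 1322 (-0.90).

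Bik, a BH3-only gene, had 576 and 285 (-0.97), and Bcl2l11, the gene of Bim, 831 and 473 (-0.79). Bid, of the same class but a member of the Fas pathway list, was level with 643 and 619 (-0.05). The class was not examined as a whole. Dnase2a, a lysosomal nuclease, had 6902 in wild-type and 13128 in knockout liver (0.93), and Mfsd2a, a lipid transporter induced by fasting, 1933 and 3339 (0.78). Serpina7, which encodes thyroxine-binding globulin, had 963 and 1771 (0.87). Pdk1, a kinase that inhibits pyruvate dehydrogenase, was lower with 4403 and 2497 (-0.81).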
